A study of Equus caballus with 45 samples.

Results

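Smooth muscle contractile genes were examined in RNA sequencing counts from horse mesenchymal stromal cells (MSC) and from 3 kinds of joint cells treated with medium conditioned by these MSC. The list names 8 genes, ACTG2, ACTA2, TAGLN, CNN1, MYL9, TPM1, TPM2 and MYH11, and was selected on a readout of these data, a higher level of ACTG2 in chondrocytes given medium of STING-activated MSC. By gene symbol, 7 of the 8 were found among the 20881 genes of the count tables, and TAGLN was not analysed here. The values in chondrocytes are therefore given as a description with no test, and tests are given only for MSC, synoviocytes, macrophages and the comparison of cell types.

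The MSC set held 12 libraries of bone marrow MSC, with 1 library for each of the donor horses 92, 99 and PC in each of 4 conditions, which were no agonist (resting), the Toll-like receptor 3 agonist poly I:C (TLR), the STING agonist 2′3′-cGAMP (STING) and a condition labelled CpG. The joint cell set held 33 libraries, 11 each of synoviocytes, chondrocytes and macrophages grown from blood. In each cell type, 9 libraries had received IL-1β and TNF-α together with conditioned medium (CM) of resting MSC, of TLR-activated MSC (TLR-MSC-CM) or of STING-activated MSC (STING-MSC-CM), with 1 library in each medium for each of the cell line names AG1, ORC and PC in the labels (n = 3 for each medium). The MSC had been kept with agonist for 2 h, and the joint cells with medium for 24 h. Per the study's methods, both were then washed and cultured for 24 h more without agonist or conditioned medium before lysis. For each cell type, 1 further library had received the cytokines with no medium and 1 had received neither. These carry the name ORC, or PC for the cytokine library of synoviocytes. The labels give 10 ng/mL of agonist, whereas the study's methods give 10 μg/mL. For each cytokine the labels give 10 ng/mL for macrophages and 20 ng/mL for synoviocytes and chondrocytes, whereas the methods give 20 ng/mL for macrophages too. Per the study's methods the joint cells of each type came from 1 horse and the MSC from 3, so the name of a joint cell library (here called its line) may stand for the MSC donor of its medium, but libraries with no medium carry such names too and of these names only PC is found among the MSC, so what the line stands for is not settled. The p-values cover the spread between these libraries, and cell type and horse cannot be told apart. If the labels hold, cytokine dose also differs between macrophages and the other joint cells and cannot be told apart from cell type. No cytokines are given for the MSC, so between MSC and joint cells with medium, cell type and cytokines cannot be told apart either.

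Smooth muscle cells contract when myosin filaments pull on actin filaments. ACTA2 and ACTG2 encode the vascular and the enteric smooth muscle actin, MYH11 encodes the smooth muscle myosin heavy chain, and MYL9 encodes the regulatory light chain whose phosphorylation starts contraction. TPM1 and TPM2 encode tropomyosins, which lie along the actin filament, and CNN1 encodes calponin 1, which binds actin and slows the myosin ATPase. The genes are read by serum response factor (SRF) with its partners myocardin (MYOCD) and the myocardin-related factors MRTFA and MRTFB, and fibroblasts that become myofibroblasts in response to TGF-β switch on many of them, ACTA2 above all. In joints, such cells are known from the synovium and from cartilage cells that dedifferentiate in culture.

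Depth was 23525704 to 54103873 counts per library (median 31660884), and levels are given as CPM, a gene's counts per 1000000 counts of its library. No gene lengths were used, so levels are compared between samples for 1 gene and not between genes. In these bulk samples, fewer cells of a type and less RNA per cell cannot be told apart. Macrophage identity was clear, with PTPRC, the leukocyte antigen CD45, at 1122 to 1576 CPM in macrophages and at most 0.239 CPM in the other cells. The chondrocyte libraries held ACAN, the cartilage proteoglycan aggrecan, at 7.07 to 21.0 CPM and COMP at 15.6 to 35.0 CPM. Synoviocytes held at most 0.946 and 1.59 CPM. COL2A1, the type II collagen that defines cartilage, was however at 0 to 0.368 CPM. With TLR-MSC-CM, 5 of 19 chondrocyte markers were higher than in synoviocytes, against 6.85% of all genes. MATN3 alone was lower (log2 fold change −2.37, adjusted p = 0.0056 by edgeR), against 8.85% of all genes. SOX9 was at 7.53 to 67.6 CPM in chondrocytes and 10.8 to 64.0 CPM in MSC. The 20 markers summed to 815 to 1419 CPM in chondrocytes, 401 to 817 CPM in synoviocytes and 274 to 1496 CPM in MSC. Mural and endothelial markers summed to 170 to 213 CPM in chondrocytes and 98.2 to 110 CPM in synoviocytes. Of the 11 genes, 5 and 6 passed the floor of 3 counts in at least 1 library with medium, among them CSPG4, MCAM and RGS5. KCNJ8, a pericyte marker, was at the floor in all cell types. Tested with TLR-MSC-CM, CSPG4 was higher in chondrocytes than in synoviocytes (log2 fold change 3.01, adjusted p = 4.9e-05 by edgeR). It was the 1 gene of 10 higher, with 0 lower, against 6.85% and 8.85% of all genes. Of the 9 chondrocyte libraries with medium, the 3 of line ORC stood apart from the other 6. In MSC, the library of donor 92 labelled as treated with the TLR agonist did not show the interferon response of the other 2, with interferon-stimulated genes summing to 666 CPM against 627 to 866 CPM in resting MSC and 13034 and 17664 CPM with the agonist in donors 99 and PC.

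The 7 genes had 3 kinds of pattern across cell types. ACTG2 was highest in MSC at 136 to 3207 CPM, and the synoviocyte range of 60.5 to 88.3 CPM lay inside the chondrocyte range of 31.9 to 167 CPM. Macrophages held at most 0.253 CPM of ACTG2. MYL9, at 841 to 1452 CPM, and TPM2, at 1061 to 1632 CPM, were also highest in MSC, and their synoviocyte ranges of 285 to 370 and 573 to 707 CPM lay inside or overlapped the chondrocyte ranges of 174 to 391 and 354 to 703 CPM. CNN1, at 480 to 1328 CPM in MSC, overlapped with the 264 to 620 CPM of chondrocytes, which all lay above synoviocytes at 182 to 244 CPM. The highest macrophage values of CNN1, MYL9 and TPM2 were 0.327, 0.261 and 0.980 CPM. The lowest MSC values of ACTG2, those of donor 99, overlapped the ORC chondrocyte libraries.

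ACTA2 was at 4838 to 11944 CPM in MSC, at 2928 to 3806 CPM in synoviocytes, at 1079 to 2893 CPM in chondrocytes and at 9.14 to 13.01 CPM in macrophages, with no overlap between any 2 cell types. TPM1, which has isoforms in many cell types, kept 106 to 147 CPM in macrophages against 983 to 1568 CPM in chondrocytes and 1661 to 2000 CPM in synoviocytes. MYH11 differed from the other members in that chondrocytes, at 7.64 to 22.7 CPM, overlapped macrophages, at 4.54 to 44.1 CPM. Its synoviocyte level of 80.9 to 181 CPM lay inside the MSC range of 29.1 to 381 CPM.

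**Figure D1:**
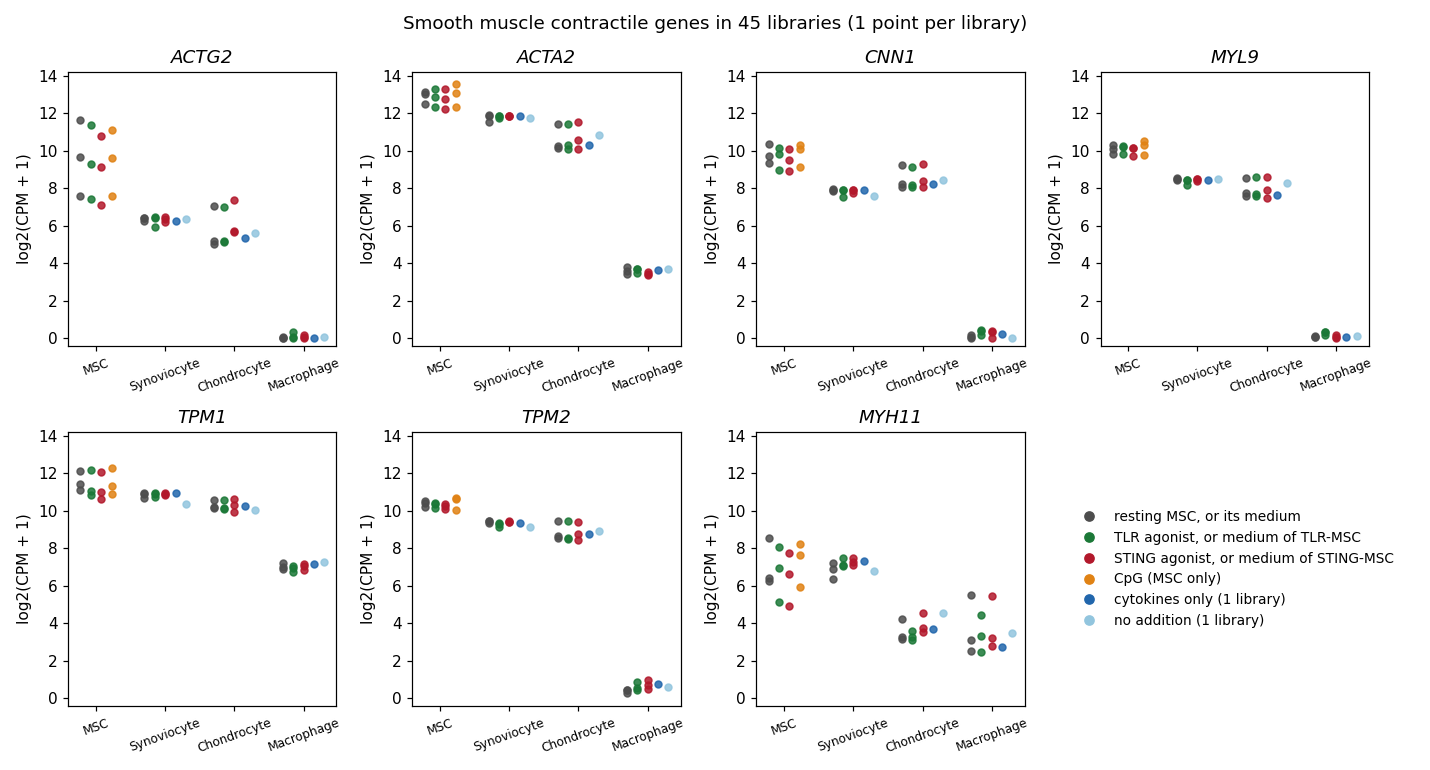
Level of each of the 7 contractile genes in each of the 45 libraries, as log2(CPM + 1) on the vertical axis, by cell type and coloured by condition (1 point per library). Macrophages sit lowest for all genes but MYH11, where their points overlap those of chondrocytes, and for all genes but MYH11 the ORC libraries with medium are the highest chondrocyte points.

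In chondrocytes, the choice of list rested on ACTG2 with STING-MSC-CM. ACTG2 was at 31.9 CPM with resting medium in line AG1, at 130 CPM in ORC and at 34.6 CPM in PC. With TLR-MSC-CM it was at 34.4, 128 and 35.7 CPM, and with STING-MSC-CM at 51.4, 167 and 50.4 CPM, in the same order of lines. The 3 groups overlapped because the ORC libraries lay far above the others in each medium, while within each line the STING-MSC-CM library was the highest. The means were 65.6 ± 56.0 CPM (SD, n = 3) with resting medium, 66.0 ± 53.6 with TLR-MSC-CM and 89.5 ± 66.9 with STING-MSC-CM.

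Within lines, the ratio of STING-MSC-CM to resting medium for ACTG2 was 1.61 for AG1, 1.28 for ORC and 1.46 for PC. The ratio of STING-MSC-CM to TLR-MSC-CM, which shares the STING libraries, was 1.49, 1.30 and 1.41. The fitted log2 fold change against resting medium was 0.44 with a standard error (SE) of 0.76, and 0.50 with the line as a block. Without the ORC resting library it was 1.43, and without the ORC STING library it was −0.42, so a single ORC library set its direction in the fit without the block. With all ORC libraries left out it was 0.58. Because this contrast chose the list, these values describe the selected gene and lend its rise no support.

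MYH11, the myosin heavy chain, was the other member that was higher with STING-MSC-CM in all 3 lines. It was at 8.66, 17.5 and 7.92 CPM with resting medium, at 7.64, 11.2 and 8.78 CPM with TLR-MSC-CM and at 10.4, 22.7 and 12.5 CPM with STING-MSC-CM (lines AG1, ORC and PC), from 217 to 611 counts per library. The ratios to resting medium were 1.20, 1.30 and 1.58, and the log2 fold change was 0.41 (SE 0.38), or 0.40 with the line as a block. Of all genes fitted in chondrocytes, 15.4% were higher in all 3 lines with STING-MSC-CM than with resting medium, and 15.9% were higher than with TLR-MSC-CM. Since the contrast chose the list, nothing is read from the 2 of 7 members beside these shares.

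The remaining 5 members split by line with STING-MSC-CM. ACTA2 went from 1210 to 1079 CPM for AG1, from 2755 to 2893 CPM for ORC and from 1117 to 1507 CPM for PC. CNN1 had ratios of 0.901, 1.05 and 1.26, and MYL9 had ratios of 0.818, 1.03 and 1.24. For TPM1 the ratios were 0.846, 1.03 and 1.115, and for TPM2 they were 0.871, 0.976 and 1.17. In all 5 genes the AG1 ratio was below 1 and the PC ratio above it.

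The STING-MSC-CM library of AG1 also differed from the other chondrocyte libraries with medium in its interferon-stimulated genes, which summed to 1924 CPM against 481 to 593 CPM in the others. Its macrophage markers summed to 40.7 CPM against 13.04 to 19.6 CPM, and 38.3 CPM of it was CD68 alone, while in chondrocytes PTPRC was at most 0.159 CPM, CSF1R at most 0.0743 CPM and 9 of 15 markers at the floor of 3 counts. The part of these values in its lower ratios was not tested.

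**Figure D2:**
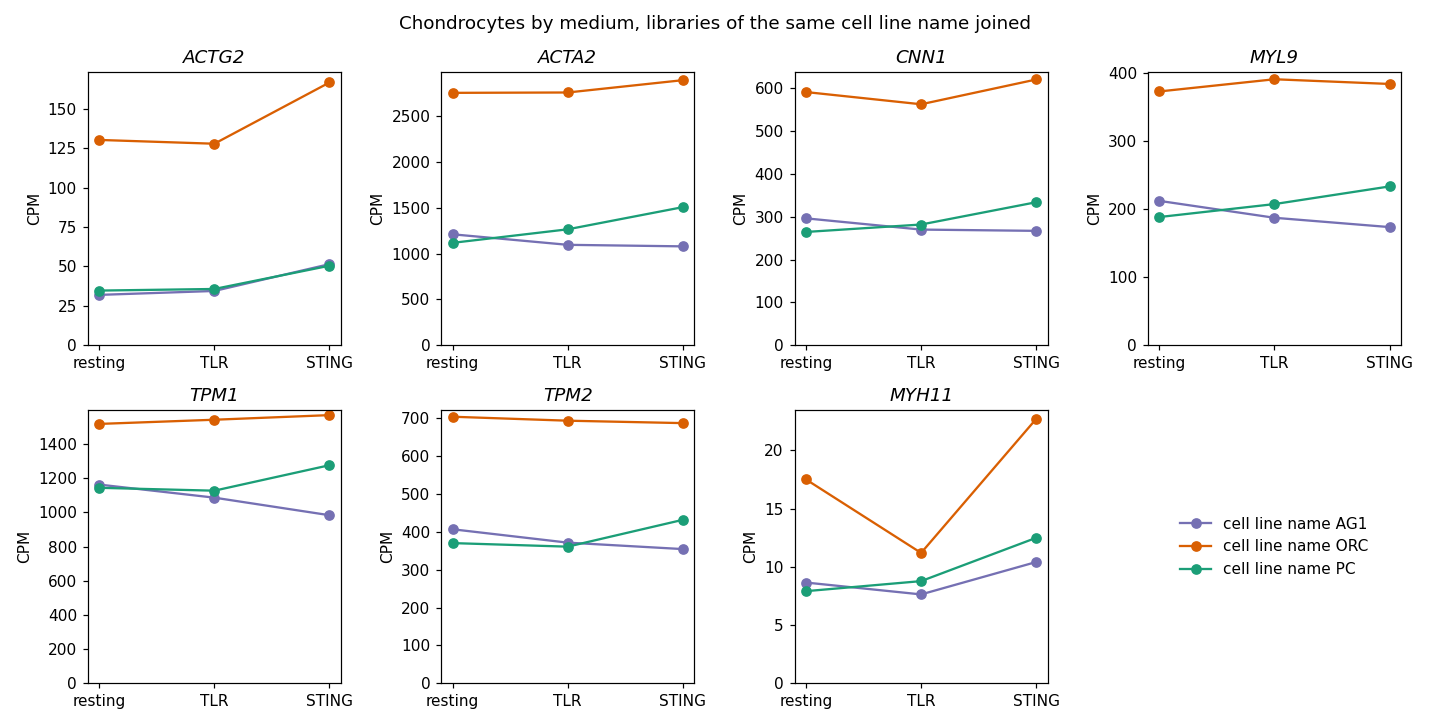
Level of each gene in chondrocytes in CPM (vertical axis from 0) by medium of resting, TLR-activated or STING-activated MSC, with the 3 libraries of each cell line name joined. ACTG2 and MYH11 are highest with STING-MSC-CM for each name, and within each medium the ORC value lies above the others for all 7 genes.

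ACTG2 differed more between lines than between media in chondrocytes. ACTG2 in the ORC libraries was 3.27 to 3.91 times the mean of the other lines, over the 3 media. The same ratio was 2.24 to 2.37 for ACTA2, 2.04 to 2.11 for CNN1, 1.86 to 1.98 for MYL9 and 1.75 to 1.89 for TPM2. It was 1.32 to 1.39 for TPM1 and 1.36 to 2.11 for MYH11. In each of the 3 media, 5 of 7 members (all but TPM1 and MYH11) were over 1.5-fold above both other lines in the ORC libraries, which held for 2.79% of genes at 1 CPM or more.

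Other genes moved with the ORC libraries too. The partners of the contractile apparatus summed to 32482 to 34973 CPM in the ORC chondrocyte libraries with medium against 23579 to 25819 CPM in the others, and genes of TGF-β signalling and myofibroblasts to 152907 to 164757 CPM against 97938 to 118295 CPM. Cell cycle genes summed to 1331 to 1451 CPM against 951 to 1124 CPM. The chondrocyte libraries without medium, which the labels also name ORC, held ACTG2 at 40.1 and 47.5 CPM, inside the 31.9 to 51.4 CPM of lines AG1 and PC. What set the ORC libraries with medium apart was not tested. In synoviocytes the order was the other way, with ACTG2 at 60.5 to 74.7 CPM in the 3 ORC libraries against 81.3 to 88.3 CPM in the other 6.

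The ratio to ACTA2 puts the same ACTG2 values, on which the list was chosen, on another scale and adds no support. Per 100 counts of ACTA2 there were 2.64 counts of ACTG2 in chondrocytes with resting medium, 3.14 with TLR-MSC-CM and 4.77 with STING-MSC-CM for AG1. The corresponding values were 4.73, 4.63 and 5.76 for ORC and 3.10, 2.82 and 3.34 for PC. In synoviocytes the value stayed between 1.77 and 2.55 over 9 libraries. These are counts and hold the lengths of both transcripts, so they serve for comparison between samples only.

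In MSC, which make the conditioned medium, ACTG2 was lower with each agonist in all 3 donors. It was at 3207, 193 and 803 CPM in resting MSC of donors 92, 99 and PC, at 2594, 168 and 623 CPM with the TLR agonist and at 1763, 136 and 554 CPM with the STING agonist. The donors stood further apart than the conditions, with donor 92 highest and donor 99 lowest in each. The ratio to resting MSC was 0.550, 0.708 and 0.690 with the STING agonist and 0.809, 0.872 and 0.776 with the TLR agonist.

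No member passed the adjusted threshold of 0.05 in MSC with the STING agonist, where edgeR called 0% of all genes, and none passed an unadjusted 0.05, where 2.1% of all genes did. DESeq2 called no member either. For DESeq2, here and below, the share of all genes called is not given, so its lack of calls is not read as a result. Of 23 interferon-stimulated genes, edgeR also called 0 after adjustment, at a median log2 fold change of 5.26, while 23 passed an unadjusted 0.05. The lack of adjusted calls in MSC therefore does not show that a gene was unchanged. The log2 fold change of ACTG2 was −0.80 (SE 1.24), that of MYH11 −0.68 (SE 0.93), that of CNN1 −0.31 (SE 0.39) and that of TPM1 −0.26 (SE 0.47). TPM2 was at −0.16 (SE 0.17), and ACTA2 and MYL9 were both at −0.07 (SE 0.34 and 0.20). All 7 values were negative, with a median of −0.26 against 0.01 over all genes. The SE held the spread between donors, and single libraries set the sign of 6 of the 7. Without the resting library of donor 92 the values of ACTG2, ACTA2 and TPM1 were 0.68, 0.047 and 0.045, without that of donor PC those of MYH11, CNN1 and MYL9 were 0.48, 0.025 and 0.061, and without the STING library of donor 99 those of ACTA2 and MYL9 were 0.12 and 0.022.

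With the MSC donor as a block, 4 of 7 members, ACTG2, CNN1, TPM1 and MYH11, were lower with the STING agonist at an unadjusted 0.05, which held for 3.94% of all genes. None passed after adjustment. For ACTG2 the log2 fold change in this fit was −0.64 (SE 0.13), with an adjusted p = 0.119 by edgeR. ACTG2, CNN1, TPM1 and TPM2 were lower with the STING agonist in all 3 donors, as were 12.1% of all genes.

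MYH11 split by donor, at 84.3, 75.9 and 381 CPM in resting MSC of donors 92, 99 and PC and at 97.1, 29.1 and 216 CPM with the STING agonist. CNN1 was at 823, 648 and 1328 CPM in resting MSC and at 735, 480 and 1070 CPM with the STING agonist. TPM1 was at 4395, 2190 and 2788 CPM and at 4281, 1568 and 2063 CPM in the same conditions. The donor 92 values of TPM1 were nearly level, with a ratio of 0.974 to resting MSC, against 0.716 in donor 99 and 0.740 in donor PC.

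In the libraries labelled with the TLR agonist, ACTG2 and TPM2 were lower than in resting MSC in all 3 donors, as were 9.43% of all genes. No member passed at either threshold, where 0% of genes passed after adjustment and 1.15% before it. The STING and the TLR agonist, compared directly, gave no member at either threshold either, with 0% and 0.242% of all genes. All 7 log2 fold changes of that comparison were negative, with a median of −0.19 against −0.01 over all genes, and ACTG2, CNN1, MYL9, TPM1 and MYH11 were lower with the STING agonist in all 3 donors, as were 7.59% of genes. Without the donor 92 library labelled TLR, no member passed in either comparison. The share of all genes passing without that library is not given, so the lack of calls is not read as a result. The median was then −0.21 for the TLR agonist against resting MSC and −0.10 for the STING against the TLR agonist, and 6 and 4 of 7 values were negative. In that setting ACTG2 was at −1.80 (SE 1.34) and 0.96 (SE 1.30). Donor 92 had the highest ACTG2 level of the donors in each of the 3 conditions.

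The interferon-stimulated genes, a known response to both agonists, summed to 10465, 22746 and 17308 CPM with the STING agonist in donors 92, 99 and PC and to 666, 13034 and 17664 CPM in the libraries labelled with the TLR agonist, so the response was seen in 3 of 3 and in 2 of 3 libraries. The ratio of 0.809 for ACTG2 in donor 92 with the TLR agonist came from a library without that response.

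The libraries labelled CpG held ACTG2 at 2172, 188 and 790 CPM in donors 92, 99 and PC. ACTG2 was the only member lower than in resting MSC in all 3 donors, which held for 9.83% of genes, with ratios of 0.677, 0.978 and 0.984. MYH11 had ratios of 2.41, 0.795 and 0.781. No member passed at either threshold (0% of genes after adjustment, 0.305% before it).

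**Figure D3:**
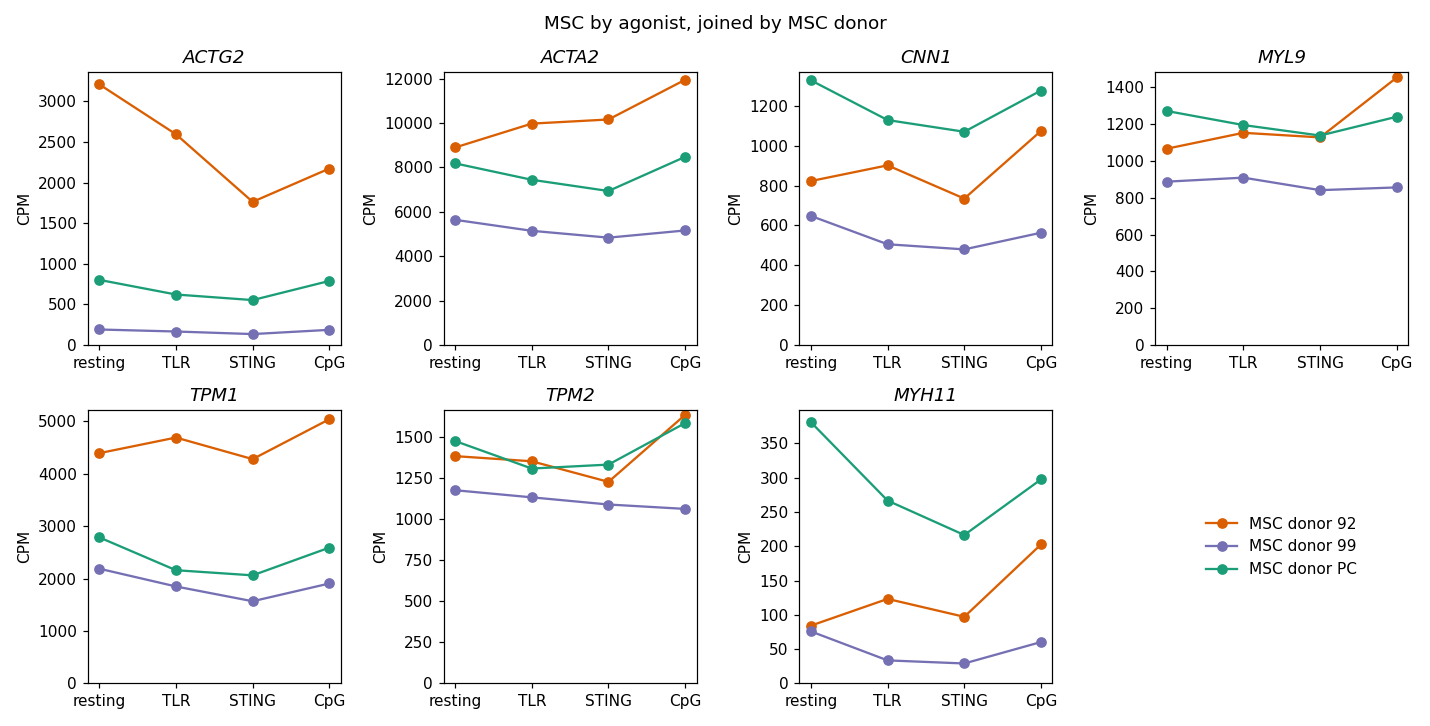
Level of each gene in MSC in CPM (vertical axis from 0) in resting MSC and with the TLR agonist, the STING agonist or CpG, with the libraries of each donor joined by a line. ACTG2 is below its resting value with each agonist in each donor, and the donors differ more than the conditions.

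Donors of MSC differed in separate members. Donor 92 was over 1.5-fold above both other donors in each of the resting, TLR and STING conditions for ACTG2 and TPM1, as were 6.25% of genes. Donor PC was so for MYH11, as were 2.95% of genes. ACTG2 per 100 counts of ACTA2 was 36.1 in resting MSC of donor 92, 3.41 in donor 99 and 9.81 in donor PC. With the STING agonist it was 17.4, 2.82 and 7.99.

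In synoviocytes, the fibroblast-like cells of the joint lining, the actins stayed within a narrow range over the 3 media. ACTG2 was at 83.9, 74.7 and 84.4 CPM with resting medium in lines AG1, ORC and PC, at 84.8, 60.5 and 87.2 CPM with TLR-MSC-CM and at 88.3, 72.9 and 81.3 CPM with STING-MSC-CM. The groups overlapped. ACTA2 was at 2928 to 3806 CPM, CNN1 at 182 to 244 CPM, MYL9 at 285 to 370 CPM and TPM1 at 1661 to 2000 CPM over the 9 libraries.

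MYH11 had the largest log2 fold changes of the members in synoviocytes. It was at 150, 80.9 and 120 CPM with resting medium of AG1, ORC and PC, at 136, 180 and 135 CPM with TLR-MSC-CM and at 136, 181 and 151 CPM with STING-MSC-CM. The ORC resting library was the lowest of the 9, and the AG1 libraries went the other way. The log2 fold change against resting medium was 0.35 (SE 0.18) with TLR-MSC-CM and 0.40 (SE 0.18) with STING-MSC-CM, where the adjusted p was 0.634 by edgeR. Without the ORC resting library these were 0.13 and 0.18, and without the ORC TLR library the former was 0.21.

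No member passed after adjustment in synoviocytes with TLR-MSC-CM, with STING-MSC-CM or between these media, where edgeR called 0% of all genes in each, and DESeq2 called none of the members. Before adjustment, none of the members passed with TLR-MSC-CM, where 10% of genes did, and MYH11 passed with STING-MSC-CM, where 7.6% of genes did. Between the media 2.02% of genes passed and no member did. TPM2, at 663, 573 and 626 CPM with TLR-MSC-CM, was at 705, 669 and 674 CPM with STING-MSC-CM. It was the only member whose groups did not overlap between these media, as was so for 4.35% of genes in the same direction, with a log2 fold change of 0.13 (SE 0.07).

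In macrophages, 4 members were near the limit of detection. ACTG2 had 0 to 10 counts per library, CNN1 0 to 12, MYL9 0 to 10 and TPM2 8 to 32 counts over the 9 libraries with medium. MYL9 had 1 or 2 counts with resting medium, 4, 10 and 8 counts with TLR-MSC-CM of AG1, ORC and PC, and 0 to 3 counts with STING-MSC-CM. CNN1 and MYL9 were higher with TLR-MSC-CM with no overlap of groups, as were 4.97% of genes, but the levels were at most 0.327 CPM.

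TPM2 in macrophages was at 0.371, 0.340 and 0.239 CPM with resting medium and at 0.980, 0.635 and 0.437 CPM with STING-MSC-CM of AG1, ORC and PC. The groups did not overlap, as was so for 5.64% of genes in the same direction. The log2 fold change was 1.08 (SE 0.47) with an adjusted p of 0.907 by edgeR.

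No member passed after adjustment in macrophages with TLR-MSC-CM, with STING-MSC-CM or between the media, where edgeR called 0% of genes in each, and DESeq2 called none of the members. Before adjustment 2.13%, 4.76% and 6.6% of genes passed in these comparisons. TPM2 passed with STING-MSC-CM, and no member passed in the other comparisons.

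ACTA2 in macrophages was at 9.85, 13.01 and 10.97 CPM with resting medium, at 11.9, 11.8 and 9.99 CPM with TLR-MSC-CM and at 10.5, 9.14 and 9.68 CPM with STING-MSC-CM. MYH11 followed the line in these cells. It was at 44.1, 20.9 and 42.7 CPM with resting, TLR- and STING-MSC-CM in line AG1, against 7.61, 8.91 and 8.37 CPM in ORC and 4.73, 4.54 and 5.88 CPM in PC. The AG1 libraries were 3.10 to 7.15 times the mean of the others, and MYH11 was the only member over 1.5-fold above both other lines in each medium, as were 0.571% of genes.

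Whether the change with a medium differed between synoviocytes and macrophages was tested as an interaction. No member passed after adjustment, where 0% of genes did in both tests, and DESeq2 called none of the members. Before adjustment, CNN1, MYL9 and TPM2 passed for TLR-MSC-CM, where 4.97% of genes did, and TPM2 passed for STING-MSC-CM, where 5.92% of genes did. The difference of log2 fold changes was −2.02 for MYL9 with TLR-MSC-CM and −1.08 for TPM2 with STING-MSC-CM, with adjusted p = 0.957 and 0.84 by edgeR, and both rest on the few macrophage counts above.

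Cell types were compared in the 3 libraries of each with TLR-MSC-CM, which the choice of list had not used. Macrophages were lower than synoviocytes in 7 of 7 members by edgeR at an adjusted 0.05, as were 34.5% of all genes. The log2 fold changes were −9.61 for ACTG2, −8.40 for ACTA2, −9.84 for CNN1 and −10.7 for MYL9. They were −10.2 for TPM2, −4.01 for TPM1 and −3.81 for MYH11. The values for ACTG2, CNN1, MYL9 and TPM2 depend on a handful of macrophage counts, 0 counts in 1 library for ACTG2.

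Against chondrocytes, macrophages were lower in 6 of 7 members, where 33.9% of all genes were. The log2 fold change was −9.38 for ACTG2, −7.32 for ACTA2, −10.6 for CNN1, −10.4 for MYL9, −9.82 for TPM2 and −3.43 for TPM1. MYH11 was the exception, with 0.22 (SE 0.41, adjusted p = 0.643 by edgeR). Without the AG1 macrophage library its log2 fold change was −0.47.

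Chondrocytes were lower than synoviocytes in 2 of 7 members, MYH11 and ACTA2, where 8.85% of all genes were lower. The log2 fold change of MYH11 was −4.03 (SE 0.44, adjusted p = 0.000191 by edgeR), and that of ACTA2 was −1.07 (SE 0.32, adjusted p = 0.0457 by edgeR). TPM1 was at −0.58 (SE 0.19), TPM2 at −0.39 (SE 0.27), MYL9 at −0.31 (SE 0.27) and ACTG2 at −0.23 (SE 0.49), none of which passed. CNN1 alone had a positive value, 0.75 (SE 0.29, adjusted p = 0.114 by edgeR), and its 9 chondrocyte libraries with medium, at 264 to 620 CPM, all lay above the 9 of synoviocytes, at 182 to 244 CPM.

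The number of members that passed in this comparison changed with each single library of the 2 cell types left out. Without the ORC chondrocyte library, 6 members were lower in chondrocytes, all but CNN1. The log2 fold changes were then −1.18 for ACTG2, −1.63 for ACTA2, −0.75 for MYL9, −0.78 for TPM1, −0.79 for TPM2 and −4.21 for MYH11. Without any other single library of either cell type, 1 member, MYH11, was lower. Without the AG1 or the PC chondrocyte library the value of ACTG2 was 0.091 or 0.074. The share of all genes called in these fits is not given, so the counts are not read as a result about the members.

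**Figure D4:**
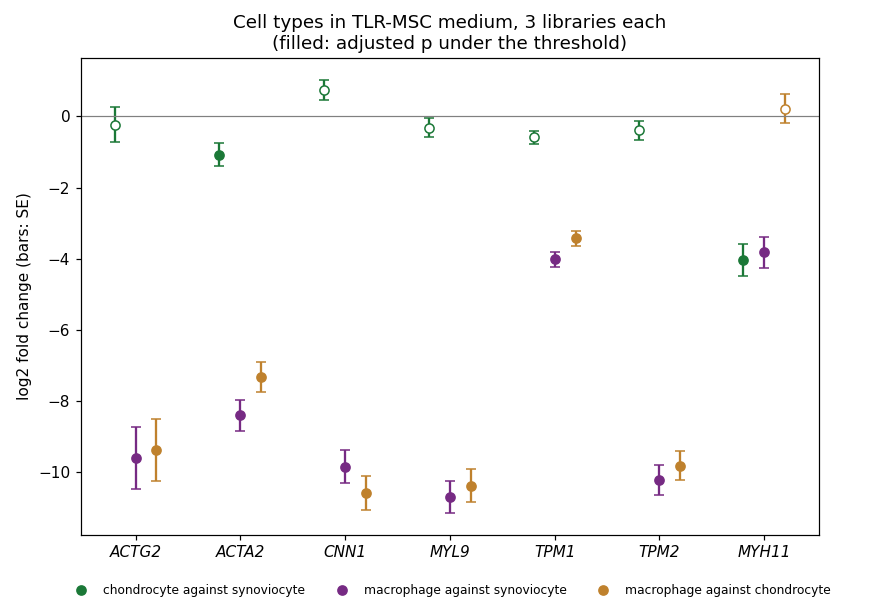
Log2 fold change (vertical axis, bars are the SE) of each gene between cell types with TLR-MSC-CM, 3 libraries each. Filled points passed an adjusted 0.05 in edgeR. Chondrocytes against synoviocytes lie between −0.58 and 0.75 except for MYH11 at −4.03 and ACTA2 at −1.07, and macrophages against either lie at −3.43 or lower except for MYH11 against chondrocytes at 0.22.

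The regulators of these genes were also read in each cell type. MYOCD, the muscle-restricted partner of SRF, was at 18.7 to 26.2 CPM in synoviocytes and 10.9 to 24.3 CPM in chondrocytes, at 0.168 to 4.89 CPM in MSC and at most 0.0327 CPM in macrophages. ACTG2 and ACTA2, in contrast, were highest in MSC. The joint cells had received cytokines and none are given for the MSC, so cell type and cytokines cannot be told apart in this contrast. SRF was at 97.3 to 162 CPM in MSC, 98.4 to 114 CPM in synoviocytes, 86.7 to 109 CPM in chondrocytes and 62.1 to 80.5 CPM in macrophages. MRTFA was at 167 to 194 CPM in synoviocytes and 116 to 140 CPM in chondrocytes, with 82.7 to 168 CPM in MSC and 60.7 to 70.8 CPM in macrophages. MRTFB was at 10.1 to 37.8 CPM in all 4 cell types.

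In chondrocytes against synoviocytes, SRF and its regulators had 1 of 18 members higher and 7 lower, with a median log2 fold change of −0.33 against 0 over all genes, of which 6.85% were higher and 8.85% lower. FHL1 was lower by a log2 fold change of −2.30 and MRTFA by −0.48, whereas FHL2, a cofactor of SRF, was higher by 0.98. SRF itself was at −0.29 with an adjusted p = 0.0438 by edgeR. Against synoviocytes, macrophages had 2 of 18 higher and 11 lower (median −0.70, with 36.9% of all genes higher and 34.5% lower), with MRTFA at −1.47 and the kinase ROCK2 at −1.87. Against chondrocytes they had 5 higher and 9 lower (median −0.35, with 36.7% of all genes higher and 33.9% lower).

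Partners of the contractile apparatus had 4 of 37 higher and 8 lower in chondrocytes than in synoviocytes, with a median of −0.37, against 6.85% and 8.85% of all genes. KCNMB1, a subunit of the calcium-activated potassium channel of smooth muscle, was lower by −3.59. PPP1R14A, an inhibitor of myosin phosphatase, was lower by −2.97, and NEXN, an actin filament protein, by −1.76. MYLK, the kinase that phosphorylates the myosin light chain, was higher by 1.01 and the intermediate filament gene SYNM by 2.20. DES, the muscle intermediate filament desmin, was at 0.815 to 4.94 CPM in chondrocytes against 5.84 to 10.9 CPM in synoviocytes, with a log2 fold change of −2.25 (adjusted p = 0.0138 by edgeR).

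Macrophages had 29 of 37 partners lower and 4 higher than synoviocytes (median −2.0 against 0.05 over all genes, of which 34.5% were lower and 36.9% higher), and 25 lower and 5 higher than chondrocytes (median −1.88, with 33.9% and 36.7% of all genes). SMTN, which encodes smoothelin, was at 1.43 to 3.46 CPM in macrophages and 367 to 473 CPM in synoviocytes. CALD1, which encodes caldesmon, was at 0.237 to 1.13 CPM against 832 to 1080 CPM, and LMOD1, which encodes leiomodin 1, at 0 to 0.298 CPM against 136 to 181 CPM. MYLK kept 28.7 to 33.5 CPM against 82.99 to 98.6 CPM. ACTB, the cytoplasmic actin of all cells, was at 4658 to 5906 CPM against 5593 to 6478 CPM, and ACTG1 at 3164 to 4143 CPM against 5955 to 6441 CPM.

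Genes of TGF-β signalling and of myofibroblasts had 1 of 38 higher and 8 lower in chondrocytes than in synoviocytes (median −0.31, with 6.85% and 8.85% of all genes), among them ELN at −4.35, which encodes elastin, and POSTN at −4.58, which encodes periostin. CCN2, a known target of TGF-β, was at −0.74 (adjusted p = 0.0186 by edgeR). Macrophages had 31 lower and 4 higher than synoviocytes (median −4.57, with 34.5% and 36.9% of all genes) and 30 lower and 4 higher than chondrocytes (median −3.58, with 33.9% and 36.7% of all genes). TGFB1 itself was at 226 to 370 CPM in macrophages, above the 53.7 to 97.4 CPM of synoviocytes, the 35.3 to 55.0 CPM of chondrocytes and the 43.2 to 101 CPM of MSC.

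Striated muscle genes were low throughout, with sums of 6.25 to 8.31 CPM in synoviocytes, 9.39 to 14.5 CPM in chondrocytes, 5.41 to 12.8 CPM in macrophages and 6.36 to 48.8 CPM in MSC. The skeletal actin ACTA1 was at 1.09 to 3.90 CPM in chondrocytes and the cardiac actin ACTC1 at 0.246 to 2.19 CPM. In chondrocytes against synoviocytes 1 of 15 was higher and 1 lower, with 6.85% and 8.85% of all genes. Macrophages had 4 of 15 higher and 3 lower than synoviocytes, with 36.9% and 34.5% of all genes, and 4 higher and 7 lower than chondrocytes, with 36.7% and 33.9%. In MSC, synoviocytes and macrophages, edgeR called no gene of these 4 lists after adjustment with any agonist or medium. At an unadjusted 0.05, 1 of 38 TGF-β genes passed with the STING agonist in MSC, where 2.1% of all genes did. In synoviocytes, 6 of 38 TGF-β genes were higher and 2 lower with STING-MSC-CM, where 7.6% of all genes passed in either direction, and 3 were higher and 4 lower with TLR-MSC-CM, where 10% did. Of the 38 partners, 1 was higher and 1 lower with STING-MSC-CM and 2 higher and 1 lower with TLR-MSC-CM in synoviocytes. In macrophages at most 3 genes of any of the 4 lists passed in a comparison. Tested there were 34 partners, 17 SRF regulators, 35 TGF-β genes and 11 striated muscle genes. Of all genes, 2.13% passed with TLR-MSC-CM, 4.76% with STING-MSC-CM and 6.6% between the media.

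The genes most like ACTG2 were ranked over the 18 synoviocyte and chondrocyte libraries with medium, by Pearson's r of log2(CPM + 1) after the mean of each cell type was taken off. Among 11726 genes, ENSECAG00000033567 (r = 0.98), URB2 (0.96), NPFFR2 (0.96), C1QTNF3 (0.96) and KLHL23 (0.96) came first outside the list. For the mean of the members they were C1QTNF3 (0.99), SIDT2 (0.98), PCSK7 (0.97), TNN (0.97) and NPFFR2 (0.97). Of the members, CNN1 was closest to ACTG2 (0.96), followed by ACTA2 (0.94), TPM2 (0.93), MYL9 (0.93), TPM1 (0.86) and MYH11 (0.68).

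These values shared the 3 ORC chondrocyte libraries. Over the 12 libraries of lines AG1 and PC, r with ACTG2 was 0.75 for MYH11, 0.34 for CNN1 and 0.31 for ACTA2. It was 0.11 for TPM2 and −0.09 for TPM1, and 0 of the 5 genes most like ACTG2 were among the 5 named above.

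The libraries without medium gave 1 value each, with no replicate, and are described only. In synoviocytes the one with no addition is named ORC and the one with cytokines PC, so line and cytokines cannot be told apart there. In chondrocytes, ACTA2 was at 1795 CPM (95% Wilson interval 1779 to 1811) with no addition and at 1272 CPM (1261 to 1283) with the cytokines. MYL9 was at 306 and 199 CPM and MYH11 at 22.8 (21.1 to 24.8) and 11.8 CPM (10.7 to 12.9). ACTG2 was at 47.5 CPM (44.96 to 50.3) and 40.1 CPM (38.2 to 42.2). TPM1 alone was higher with the cytokines, at 1049 and 1208 CPM. The intervals cover counting error only.

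In synoviocytes, TPM1 was again higher with the cytokines, at 1308 CPM with no addition and 2013 CPM with them. Of members with the opposite order to chondrocytes, MYH11 was at 109 and 161 CPM, CNN1 at 189 and 234 CPM and ACTA2 at 3415 and 3746 CPM. ACTG2 was at 79.3 CPM (76.3 to 82.5) and 76.0 CPM (72.8 to 79.3). With the cytokines, only TPM1 was at least 1.5-fold higher in synoviocytes, as were 6.09% of genes at 1 CPM or more, while 5.64% were as much lower. In chondrocytes 9.34% of genes were at least 1.5-fold higher and 12.2% as much lower, among the latter MYL9 and MYH11. The MYL9 ratio was 0.651, but 0.672 with TMM-scaled library sizes, which is short of the 1.5-fold mark.

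MYOCD was higher with the cytokines in both cell types, at 9.98 CPM (8.94 to 11.1) and 21.6 CPM (20.0 to 23.4) in synoviocytes and at 7.18 CPM (6.22 to 8.29) and 17.8 CPM (16.6 to 19.2) in chondrocytes. SRF was at 77.0 and 112 CPM in synoviocytes and at 69.6 and 97.9 CPM in chondrocytes. In macrophages, ACTA2 was at 11.7 and 11.5 CPM and TPM1 at 152 and 145 CPM. The cytokine library of chondrocytes lay inside the range of the resting medium libraries for all 7 members. That of synoviocytes lay above it for TPM1, at 2013 against 1661 to 2000 CPM, and MYH11, at 161 against 80.9 to 150 CPM, and that of macrophages for TPM2, at 0.695 against 0.239 to 0.371 CPM.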

How the data were processed

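Counts of sequenced fragments per gene were deposited as whole numbers in 1 table for MSC and 1 for joint cells. The authors trimmed reads with cutadapt 1.12, aligned them with STAR to EquCab3.0 and counted them with HTSeq 0.11.0. CPM was computed from each library's total. Genes with at least 10 counts in a fit were tested with edgeR 4.0.16 (R 4.3.3, TMM scaling, quasi-likelihood test), each cell type over its 9 libraries, with Benjamini-Hochberg adjustment over all genes. DESeq2 1.42.0, other scalings and filters, the cell line name as a block and fits without each library were alternatives, and the edgeR scripts were tested on simulated data. The cell line name in the labels, which is the donor for MSC, was taken to pair libraries across conditions. Deviations of same-name libraries from their group means correlated at 0.66 to 0.90 in MSC, 0.57 to 0.89 in chondrocytes, 0.34 to 0.57 in macrophages and −0.38 to 0.36 in synoviocytes.

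The members, gene lists and tests were chosen with earlier results of these data known. Text names all members, up to 5 list genes per comparison that passed, 16 further genes given whatever their values (1 of them not reported here), and the 5 genes most like ACTG2. Depth of 23525704 to 54103873 counts put the floor of 3 counts at or below 0.128 CPM. Wilson intervals cover counting error only.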

Additional observations from a re-analysis of the deposited data

Results flagged for a closer look

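All members were searched over the medium comparisons and pairs of joint cell types that the interaction did not test. For 3 values, every library of one joint cell type moved one way with a medium and every library of another moved the opposite way. Levels were on the log2(CPM + 1) scale, and in each case the difference was not tested. The share of all genes with such a pattern is not given, so the 3 are not read as a result about the members. With TLR-MSC-CM against resting medium, TPM2 changed by a mean of −0.06 in chondrocytes and 0.23 in macrophages, a difference of −0.29, where the macrophage libraries held 8 to 32 counts. With STING-MSC-CM against TLR-MSC-CM, ACTA2 changed by 0.05 in synoviocytes and −0.18 in macrophages, a difference of 0.23. In the same comparison MYL9 changed by 0.10 in synoviocytes and −0.20 in macrophages, a difference of 0.31, on 0 to 10 macrophage counts.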

How the results depend on the processing

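The number of members called was the same or within 1.5 times in 227 of 236 alternatives over 15 comparisons. In the agonist, medium and interaction comparisons edgeR called 0% of all genes. The count of 0 members had little room to move there, so its sameness is not read as a result. The 9 other alternatives were all chondrocytes against synoviocytes, where 2 members passed. Leaving out 1 library gave 1 to 6 members, leaving out all libraries of line AG1 or PC gave 1, and leaving out all those of ORC gave 6 (the line-wise fits were chosen after seeing the data). With the cell line name as a block, which pairs libraries by name, 0 members passed after adjustment in every agonist, medium and interaction comparison. The share of all genes called in these alternatives is not given, so their counts are not read as a result about the members. Of 426 alternatives to 32 tested log2 fold changes, 401 kept direction and side of the threshold and 12 reversed, in 8 results. Leaving out 1 library moved STING against resting MSC from −2.05 to 0.68 for ACTG2, −0.38 to 0.12 for ACTA2, −0.65 to 0.025 for CNN1, −0.18 to 0.061 for MYL9, −0.80 to 0.045 for TPM1 and −1.55 to 0.48 for MYH11. It moved chondrocytes against synoviocytes from −1.18 to 0.091 for ACTG2, which was 0.13 in the STING-MSC-CM libraries, and macrophages against chondrocytes from −0.47 to 0.58 for MYH11. Beyond the library left out, the cause was not tested. Depth limits ACTG2, CNN1, MYL9 and TPM2 in macrophages.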
